A study of Homo sapiens with 5 samples.

Results

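The nuclear-encoded respiratory chain RNAs were the 98 genes whose symbols start with NDUF, UQCR or ATP5 or with COX4 to COX8, together with SDHA, SDHB, SDHC and SDHD. They were taken from a table of 25702 genes, after 4 pseudogenes with such symbols were left out. Of the 98, 96 are protein-coding in RefSeq and 2 are noncoding RNAs. Each gene was assigned to complex I, II, III, IV or V by its textbook role, with NDUFA4 and NDUFA4L2 placed in complex IV. The RNAs were measured by RNA immunoprecipitation and sequencing (RIP-seq) with an antibody to PSF, which is the product of the SFPQ gene and binds RNA, in LTAD cells, a prostate cancer line. All cells grew in phenol-red-free medium whose serum had been stripped of steroids with charcoal and dextran. The groups were PSF-RIP from cells given the small molecule No.10-3 at 5 µM (n = 2), PSF-RIP from cells given the DMSO vehicle (n = 1), and input RNA taken without immunoprecipitation (n = 2). One input came from vehicle cells and one from No.10-3 cells, but the column names do not tell which is which, so both served as 1 reference and are called input library 1 and input library 2. A comparison of No.10-3 with vehicle in input was therefore not made, and a change in recovery by PSF and a change in the amount of an RNA in the cells cannot be told apart. No immunoprecipitation with a control antibody is among these 5 samples, so RNA that binds the beads was not measured separately. The labels do not say whether the 2 No.10-3 libraries came from separate cultures, and the p-values measure only the spread between libraries, which may be technical. Since the 2 inputs came from different treatments, the spread between them also holds any effect of No.10-3 on input RNA.

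The respiratory chain passes electrons from NADH through complex I, or from succinate through complex II, to ubiquinone, on to cytochrome c through complex III and to oxygen through complex IV. Complexes I, III and IV pump protons across the inner mitochondrial membrane, and complex V, the ATP synthase, lets them flow back to make ATP. Most subunits are encoded in the nucleus, translated in the cytosol and imported, while a small number of hydrophobic core subunits are encoded in mitochondrial DNA. PSF is mainly a nuclear protein with roles in transcription, splicing and RNA retention in paraspeckles.

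The libraries held between 1519362 and 3368252 counts in PSF-RIP, against 4010376 and 3083063 in input libraries 1 and 2. Their makeup differed, since RN7SK, RPPH1, RN7SL1, RN7SL2 and RMRP took 2.63% to 7.81% of counts in PSF-RIP but 51.7% and 55.0% in the inputs. Nuclear protein-coding genes took 73.6% to 82.1% of counts in PSF-RIP and 16.4% and 15.9% in the inputs. Every comparison with input is therefore relative to the typical gene, through edgeR's TMM scaling. Scaling to total counts alone would raise the median gene by 2.34 log2 units over input. All 7 luminal prostate markers passed the filter on low counts, KRT8 and KLK3 among them, whereas 1 of 4 stromal, 1 of 3 immune and 0 of 2 endothelial markers did. PTPRC, CD3E, DCN, LUM and CDH5 were at 0 in every library. The stromal marker that passed was COL1A1, with a mean of 21.4 normalised CPM over the 5 libraries. CD68, the immune marker that passed, had a mean of 2.62, and the luminal markers had a median of 107.

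The 98 RNAs together held 11482 and 21222 counts in the No.10-3 PSF-RIP libraries, 11528 in the vehicle PSF-RIP library, and 6419 and 7908 in input libraries 1 and 2. As a share of all counts this was 0.756% (95% Wilson interval 0.742% to 0.770%) and 0.630% (0.622% to 0.639%) with No.10-3, 0.528% (0.519% to 0.538%) with vehicle, and 0.160% (0.156% to 0.164%) and 0.256% (0.251% to 0.262%) in the inputs. These intervals cover counting error only. As a share of nuclear protein-coding counts, which leaves out the small RNAs and mitochondrial RNAs, the values were 1.03% and 0.766% with No.10-3, 0.694% with vehicle, and 0.973% and 1.61% in the inputs. On that base input library 2 stood above all 3 PSF-RIP libraries, and input library 1 lay among them. The median RNA of the 98 had 84 and 190.5 counts with No.10-3, 86 with vehicle, and 44 and 53 in the inputs, so single values carry more counting error in the inputs.

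Relative to input and to the typical gene, more respiratory chain RNAs were lower than higher in PSF-RIP, though most did not pass the test. Of the 98, 91 had a mean of at least 1 CPM, that is counts scaled to the same library total, and were tested. In edgeR's quasi-likelihood test with Benjamini-Hochberg adjustment over all 13321 tested genes at a threshold of 0.05, 38 of the 91 were lower and 2 were higher. Across all tested genes 13.6% were lower and 12% were higher. The median log2 PSF-RIP over input was -0.78 for the 91, beside 0.05 for all tested genes. All 3 PSF-RIP libraries lay below both inputs for 41 of the 91 and above both for 9, where 25.1% and 30.1% of all tested genes did so. The size of this shift depended on which input served as the reference. Input library 2 was higher than input library 1 by a median of 0.70 log2 units over the 91, beside -0.02 over all tested genes. An effect of No.10-3 on input RNA and a difference between libraries cannot be told apart in this gap. Without input library 2, 6 of the 38 were lower and the median was -0.21, and 4.11% of all tested genes were lower in that fit. Without input library 1, 28 were lower and the median was -1.14, beside 6.37% of all tested genes. Fewer calls were thus made over all genes too when an input was left out. Leaving out No.10-3 replicate 1 gave 50 lower and 4 higher, beside 17.7% and 16.6% of all tested genes. Leaving out replicate 2 gave 41 lower and 8 higher, beside 21.9% and 20.3%, while 0 were higher without either input.

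**Figure D1:**
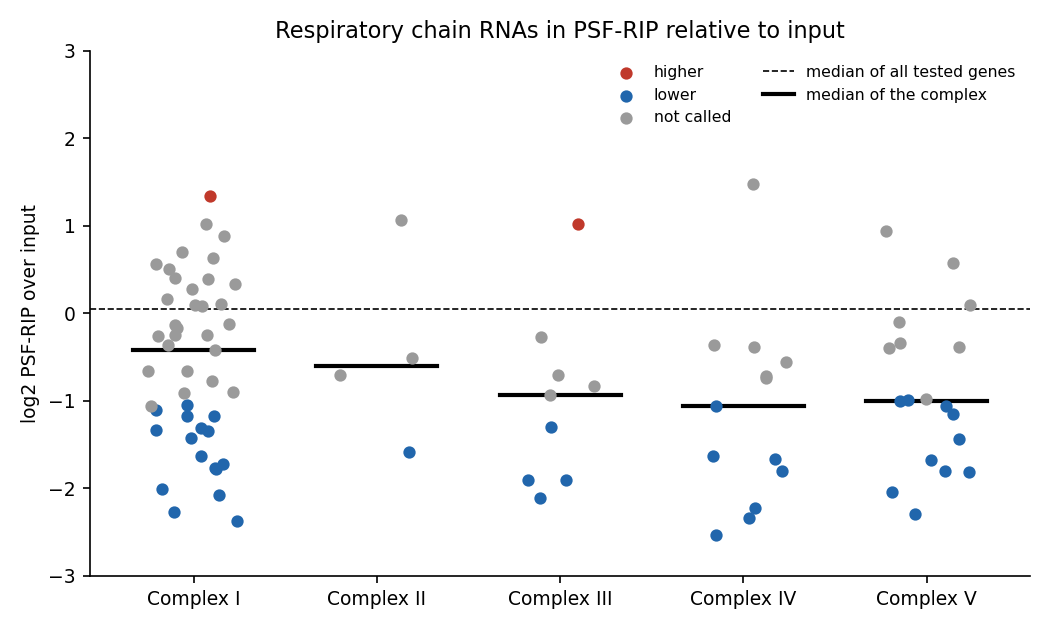
Log2 PSF-RIP over input (vertical axis) for each tested respiratory chain RNA assigned to a complex (points), grouped by complex along the horizontal axis and coloured by its call in edgeR's test. Thick bars are the medians of each complex, from -0.42 in complex I to -1.06 in complex IV, all under the dashed median of all tested genes at 0.05.

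The 6 RNAs that stayed lower when any 1 input or No.10-3 library was left out belong to complexes I, III, IV and V. The vehicle PSF-RIP library, the only one of its group, was not left out. Apart from scaling to total counts, the 6 were lower in all 12 other settings, which include the 4 fits that chose them. COX7A2L, a factor that joins complexes III and IV into supercomplexes, had 18.5 and 12.5 normalised CPM with No.10-3, 6.19 with vehicle, and 37.3 and 76.4 in the inputs (log2 -2.53, SE 0.41, adjusted p = 3.18e-05). NDUFB1, an accessory subunit in the membrane arm of complex I, had 18.5 and 13.1 normalised CPM with No.10-3, 10.7 with vehicle, and 49.5 and 86.1 in the inputs (log2 -2.38, SE 0.39, adjusted p = 3.19e-05). For both, all 3 PSF-RIP libraries were under both inputs, and input library 2 was above input library 1.

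ATP5F1E, the epsilon subunit of the catalytic F1 part of ATP synthase, had 91.3 and 52.6 normalised CPM with No.10-3, 94.3 with vehicle, and 331 and 478 in the inputs (log2 -2.30, SE 0.40, adjusted p = 6.95e-05). UQCRH, the hinge protein of complex III that contacts cytochrome c1, had 43.97 and 33.6 normalised CPM with No.10-3, 26.9 with vehicle, and 129.9 and 150.04 in the inputs (log2 -2.12, SE 0.37, adjusted p = 6.95e-05). For these 2 RNAs the groups did not overlap, and each input was above every PSF-RIP library. NDUFB5, another membrane arm subunit of complex I, had 10.7 and 14.9 normalised CPM with No.10-3, 4.05 with vehicle, and 30.2 and 31.1 in the inputs (log2 -2.07, SE 0.43, adjusted p = 6.69e-04). UQCRB, the ubiquinone-binding protein of complex III, had 29.6 and 53.4 normalised CPM with No.10-3, 23.8 with vehicle, and 107 and 129.6 in the inputs (log2 -1.91, SE 0.37, adjusted p = 3.20e-04). The vehicle library was the lowest of the 3 PSF-RIP libraries for 5 of these 6 RNAs, the exception being ATP5F1E.

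**Figure D2:**
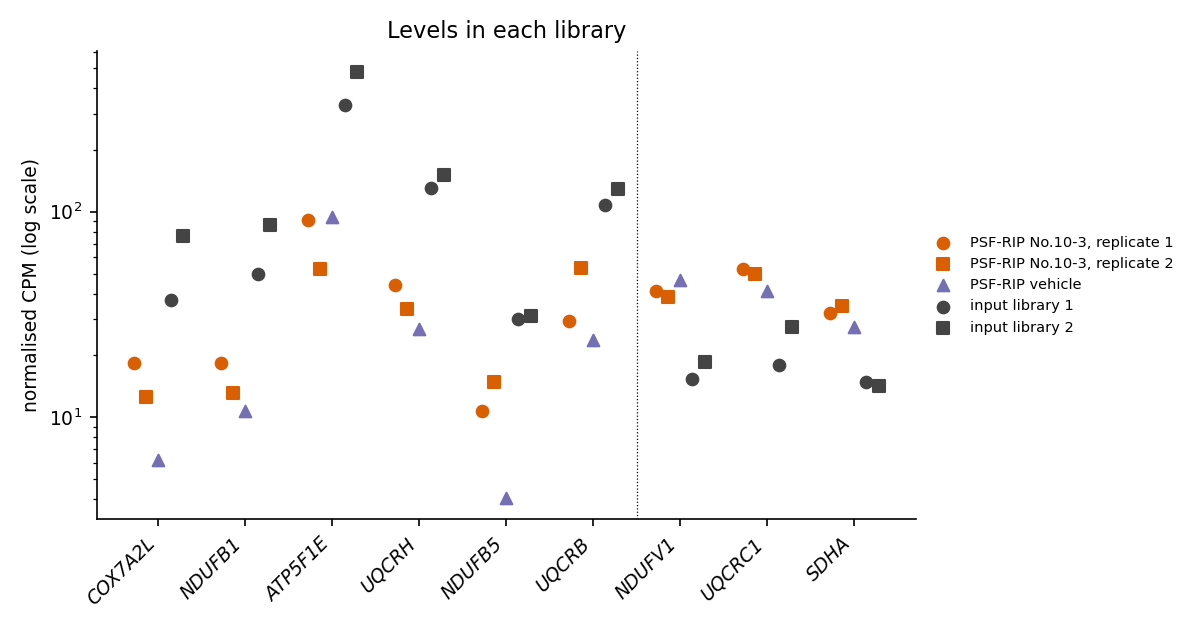
Normalised CPM on a log scale (vertical axis) in each of the 5 libraries for the 6 RNAs called lower whichever library was left out (left of the dotted line) and for 3 RNAs that were higher or near the threshold (right). Orange marks are PSF-RIP with No.10-3, purple marks PSF-RIP with vehicle and black marks the inputs, and the PSF-RIP marks lie below the inputs on the left and above them on the right.

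Promoter sequence is a feature of these genes that the choice by symbol did not use, although the libraries measured RNA and not promoters. RefSeq windows of 300 bases around transcript starts (GRCh38.p14) were held for 79 of the 98 genes, 98 windows in all. Each was searched on both strands for the core GCGCATGC of NRF1, the core CCGGAAG of ETS factors such as GABPA, and the core AAGATGGC of YY1, factors known to act on respiratory chain genes. The NRF1 core was in 17.3% of the windows, beside 3.74% of 22199 windows of 15843 protein-coding genes. The ETS core was in 25.5% beside 12.8%, the YY1 core in 15.3% beside 3.53%, and at least 1 of the 3 in 43.9% beside 18.4%. Among genes called lower in PSF-RIP over input 42.5% of 40 windows held at least 1 core, and among the other tested members 48.1% of 54 did. These 4 windows show each core in its setting, from 100 bases before to 20 bases after the start and 5′ to 3′ on the gene's strand, with the cores in capitals:
ATP5F1C, chr10:7788077-7788196, plus strand: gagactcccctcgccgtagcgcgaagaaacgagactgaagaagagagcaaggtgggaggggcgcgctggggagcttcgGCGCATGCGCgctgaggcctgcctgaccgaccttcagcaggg
NDUFS7, chr19:1383807-1383926, plus strand: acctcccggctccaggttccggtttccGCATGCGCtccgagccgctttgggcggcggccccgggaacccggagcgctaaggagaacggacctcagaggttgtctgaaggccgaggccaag
UQCRH, chr1:46303598-46303717, plus strand: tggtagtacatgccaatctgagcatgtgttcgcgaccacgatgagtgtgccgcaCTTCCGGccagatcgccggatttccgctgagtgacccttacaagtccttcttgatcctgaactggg
ATP5PB, chr1:111449364-111449483, plus strand: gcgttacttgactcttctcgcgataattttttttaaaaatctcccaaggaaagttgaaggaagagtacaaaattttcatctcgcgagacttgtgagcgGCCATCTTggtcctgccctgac
ATP5F1C, the gamma subunit that turns inside the ATP synthase, holds an NRF1 core on each strand, overlapping in 1 run of capitals. NDUFS7, a core subunit of complex I, holds the NRF1 core on the opposite strand. UQCRH holds the ETS core and ATP5PB, a peripheral stalk subunit of ATP synthase, the YY1 core, both on the opposite strand. The genes in these examples include RNAs called lower over input (ATP5F1C, UQCRH and ATP5PB) and one that was not (NDUFS7). A match is only a run of letters and does not show that a factor binds there.

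Complex I medians differed by role. The 7 tested core subunits, which carry the flavin and the iron-sulphur clusters, had a median log2 of 0.41 over input, with 1 higher and 1 lower. The 30 accessory subunits, which surround the core, had a median of -0.91, with 13 lower and 0 higher. The 8 assembly factors had a median of -0.45, with 2 lower and 0 higher. Of all tested genes, 13.6% were lower and 12% higher. The classes differed in length, with medians of 959 bases for core subunits, 737 for accessory subunits and 1742 for assembly factors. With the trend on gene length removed, 7 accessory subunits were lower and 4 higher, beside 16.1% and 12.1% of all tested genes. The core subunits then had 1 lower and 2 higher, and the assembly factors 1 lower and 0 higher. The gap between the inputs differed by role too. Input library 2 minus input library 1 had a median of 0.09 log2 units for core subunits, 1.04 for accessory subunits and 0.0035 for assembly factors. The difference between these classes was not tested. Over all 45 complex I RNAs 16 were lower, and 2 were without input library 2.

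NDUFV1, the flavin-bearing subunit that takes electrons from NADH, was higher in PSF-RIP. It had 41.4 and 38.6 normalised CPM with No.10-3, 46.4 with vehicle, and 15.4 and 18.6 in the inputs (log2 1.34, SE 0.40, adjusted p = 0.0132). Its 3 PSF-RIP libraries all lay above both inputs, and the call was made in 10 of 12 other settings but not without either input. NDUFS7, which holds the last iron-sulphur cluster, had 26.97 and 16.01 normalised CPM with No.10-3, 16.7 with vehicle, and 4.50 and 16.9 in the inputs (adjusted p = 0.193). Its inputs differed from each other more than its input library 2 did from the vehicle PSF-RIP library.

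NDUFV2 was the core subunit called lower. This partner of NDUFV1 had 19.6 and 27.4 normalised CPM with No.10-3, 13.8 with vehicle, and 48.2 and 71.9 in the inputs (log2 -1.72, SE 0.38, adjusted p = 0.00111). The pair that forms the NADH-oxidising tip of complex I thus held 1 RNA called higher and 1 called lower. NDUFV2 was not called without input library 2 (adjusted p = 0.113). Among the assembly factors, NDUFAF4 had 1.48 and 2.45 normalised CPM with No.10-3, 2.14 with vehicle, and 7.72 and 13.3 in the inputs (log2 -2.27, SE 0.58, adjusted p = 0.00454). It was low in every library, with at most 13.3 normalised CPM.

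Complex II, succinate dehydrogenase, had 4 RNAs and 1 call. SDHD, a membrane anchor, had 9.24 and 11.5 normalised CPM with No.10-3, 5.48 with vehicle, and 21.9 and 23.97 in the inputs (log2 -1.59, SE 0.44, adjusted p = 0.00762), and was not called without either input. SDHC, the other anchor, had 21.8 and 20.2 normalised CPM with No.10-3, 9.29 with vehicle, and 22.5 and 23.1 in the inputs, with an adjusted p of 0.209. The 2 No.10-3 libraries were close to the inputs for SDHC and the vehicle library was below them. SDHA, the flavoprotein that oxidises succinate, had 32.1 and 34.8 normalised CPM with No.10-3, 27.6 with vehicle, and 14.8 and 14.2 in the inputs (log2 1.07, SE 0.42, adjusted p = 0.0558). All 3 PSF-RIP libraries were above the inputs for SDHA, without reaching the threshold. SDHB, the iron-sulphur subunit, had 12.6 and 13.6 normalised CPM with No.10-3, 13.8 with vehicle, and 14.8 and 23.97 in the inputs (adjusted p = 0.402).

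Complex III RNAs included 4 of 9 that were lower and 1 that was higher. Leaving out input library 2 gave 2 lower, and leaving out No.10-3 replicate 1 gave 7. UQCRC1, a core protein of the complex, had 52.5 and 49.6 normalised CPM with No.10-3, 41.2 with vehicle, and 18.01 and 27.5 in the inputs (log2 1.02, SE 0.39, adjusted p = 0.0495). All of its PSF-RIP values were above both inputs, and the call was made in 5 of 12 other settings, so it sat at the edge of the threshold. UQCRC2, the other core protein, had 38.4 and 41.4 normalised CPM with No.10-3, 30.2 with vehicle, and 34.7 and 49.7 in the inputs (adjusted p = 0.619), with overlapping groups. UQCR11, a small subunit, had 77.2 and 28.6 normalised CPM with No.10-3, 60.7 with vehicle, and 88.8 and 95.9 in the inputs (adjusted p = 0.167), with all 3 PSF-RIP libraries below both inputs. UQCRQ, which lies next to cytochrome b, had 116 and 56.8 normalised CPM with No.10-3, 90.2 with vehicle, and 143 and 289 in the inputs (log2 -1.30, SE 0.39, adjusted p = 0.0144). UQCRHL, a retrocopy of UQCRH, had 25.5 and 21.5 normalised CPM with No.10-3, 20.7 with vehicle, and 65.6 and 100.3 in the inputs (log2 -1.91, SE 0.37, adjusted p = 2.86e-04). Reads of UQCRH and UQCRHL may be split between these near-identical copies, since how reads with several matches were counted is not stated in the sources at hand. The same limit holds for other members with processed pseudogenes.

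Complex IV RNAs had the lowest median, at -1.06, with 7 of 13 lower and 0 higher. The count was 1 lower without input library 2 and 11 without No.10-3 replicate 1. Input library 2 stood above input library 1 for all 13, by a median of 1.21 log2 units. COX6C, a single-span subunit at the edge of the complex, had 41.01 and 36.3 normalised CPM with No.10-3, 16.2 with vehicle, and 61.1 and 194 in the inputs (log2 -2.34, SE 0.41, adjusted p = 7.52e-05). NDUFA4, first described in complex I and now placed in complex IV, had 59.1 and 38.2 normalised CPM with No.10-3, 23.3 with vehicle, and 93.3 and 222 in the inputs (log2 -2.22, SE 0.39, adjusted p = 1.05e-04). Input library 1 was above all 3 PSF-RIP libraries for both RNAs, and input library 2 was higher still. Without input library 2 the adjusted p was 0.142 for COX6C and 0.0805 for NDUFA4. COX4I1, the ubiquitous form of subunit IV, had 152 and 86.8 normalised CPM with No.10-3, 91.2 with vehicle, and 109 and 164 in the inputs (adjusted p = 0.469). COX5B, which binds zinc, had 84.6 and 36.2 normalised CPM with No.10-3, 34.5 with vehicle, and 35.4 and 82.6 in the inputs (adjusted p = 0.531). No.10-3 replicate 1 lay between the inputs for COX4I1 and above both for COX5B, and their groups overlapped.

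The subunits of complex IV that are known from muscle, lung or testis were nearly absent. COX4I2, COX6A2, COX7A1 and COX8C had 0 counts in all 5 libraries. COX6B2 had 2 counts in each No.10-3 library, 0 with vehicle and 0 in the inputs. COX7B2 had 0 and 1 counts with No.10-3, 1 with vehicle and 0 in the inputs. NDUFA4L2, a relative of NDUFA4 known to be induced by hypoxia, had 9 and 15 counts with No.10-3, 17 with vehicle, and 0 and 3 in input libraries 1 and 2 (adjusted p = 0.249). ATP5MGL, a retrocopy of ATP5MG, had 0 counts in both No.10-3 libraries, 1 with vehicle, and 0 and 1 in the inputs. Of the noncoding RNAs that share a member's name, NDUFA6-DT had 1 and 10 counts with No.10-3, 7 with vehicle and 0 in both inputs, and was not called (adjusted p = 0.104). NDUFB2-AS1 had 2 and 6 counts with No.10-3, 5 with vehicle, and 7 and 3 in the inputs (adjusted p = 0.0792). Without a stated strand setting, reads of these RNAs and of overlapping genes cannot be told apart.

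ATP synthase medians also differed by role, with 10 of 18 RNAs lower and 0 higher, beside 13.6% and 12% of all tested genes. With the trend on gene length removed 8 were lower and 1 higher, beside 16.1% and 12.1%. The 5 subunits of F1 had a median log2 of 0.10 with 2 lower, ATP5F1C and ATP5F1E. The 4 tested subunits of the peripheral stalk, which holds F1 still, were all lower, with a median of -1.37. The 5 tested supernumerary subunits in the membrane had a median of -1.44 with 4 lower. The 3 genes of the c-ring, which encode an identical mature protein, had a median of -0.34 and 0 calls. Input library 2 minus input library 1 had a median of 0.21 log2 units for F1 and 0.63 for the stalk. It was 0.78 for the membrane subunits and 0.87 for the c-ring. ATP5IF1, the inhibitor that stops ATP hydrolysis, had 80.2 and 81.3 normalised CPM with No.10-3, 78.6 with vehicle, and 81.7 and 129.6 in the inputs (adjusted p = 0.432). The difference between these classes was not tested, and without input library 2 ATP5F1E was the 1 ATP synthase RNA called lower. Without input library 1, 6 were lower.

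The catalytic subunits of F1 did not pass the test. ATP5F1B, the beta subunit that holds the catalytic sites, had 221 and 242 normalised CPM with No.10-3, 135 with vehicle, and 109.98 and 127 in the inputs (log2 0.58, adjusted p = 0.26), with all 3 PSF-RIP libraries above both inputs. ATP5F1A, the alpha subunit, had 165 and 162 normalised CPM with No.10-3, 128 with vehicle, and 136 and 135 in the inputs (adjusted p = 0.872). ATP5F1D, the delta subunit, had 62.1 and 24.8 normalised CPM with No.10-3, 42.1 with vehicle, and 21.2 and 23.1 in the inputs (adjusted p = 0.0898). Among the membrane subunits, ATP5MD, a small membrane subunit now named ATP5MK, had 40.6 and 28.98 normalised CPM with No.10-3, 30.00 with vehicle, and 87.5 and 179 in the inputs (log2 -2.04, SE 0.38, adjusted p = 1.87e-04). ATP5MPL, the small membrane subunit now named ATP5MJ, had 24.02 and 28.4 normalised CPM with No.10-3, 26.9 with vehicle, and 76.5 and 111 in the inputs (log2 -1.81, SE 0.36, adjusted p = 4.32e-04). For ATP5MD and ATP5MPL the groups did not overlap, and the adjusted p without input library 2 was 0.0875 and 0.0662. ATP5MC2, a c-ring gene, had 181 and 79.9 normalised CPM with No.10-3, 105 with vehicle, and 135 and 161 in the inputs (adjusted p = 0.539), with overlapping groups.

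By level per kilobase of gene length, the highest mean over the 5 libraries was that of ATP5F1E. It had 208 and 119.9 normalised CPM per kilobase with No.10-3, 215 with vehicle, and 753 and 1088 in the inputs. COX7C, another small complex IV subunit, came next with 276 and 157 normalised CPM per kilobase with No.10-3, 130.5 with vehicle, and 397 and 646 in the inputs. Next came COX6A1, with 325 and 124 normalised CPM per kilobase with No.10-3, 151 with vehicle, and 199.5 and 405 in the inputs. The order of the top 3 was not the same in all libraries, since COX6A1 was the highest of the 3 in No.10-3 replicate 1 and ATP5F1E in both inputs, and the libraries of each RNA overlapped those of the others.

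Gene length went along with the difference. The tested members were short, with a median of 975 bases beside 2891 for all tested genes, and short RNAs were lower in PSF-RIP outside the respiratory chain as well. Below 700 bases the median log2 over input was -0.87 for 28 members and -0.85 for 203 other nuclear protein-coding genes. From 700 to below 1000 bases it was -1.06 for 20 members and -0.33 for 398 others. From 1000 to below 1500 bases it was -0.83 for 15 members and -0.03 for 937 others, and from 1500 to below 2500 bases -0.26 for 20 members and 0.20 for 2750 others. The 6 members of 2500 bases or more had a median of -0.14, beside 0.15 for 7429 others. Members below 700 bases thus had about the median of other genes of that length, and members in the 4 longer classes had lower medians than other genes. The gap between the inputs went along with length as well. Input library 2 minus input library 1 had a median of 0.99 log2 units for members below 700 bases, beside 0.42 for other nuclear protein-coding genes, and of 0.15 for members of 2500 bases or more, beside -0.11 for others. With the trend on length removed, the members' median over input was -0.45, beside 0.01 for all tested genes. Then 26 members were lower and 8 higher, beside 16.1% and 12.1% of all tested genes, and 25 of the 26 were among the 38. Across the 89 tested protein-coding members, Spearman's rho between length and log2 PSF-RIP over input was 0.243, beside 0.0646 across 11806 nuclear protein-coding genes. Between mean input level and the same ratio, rho was -0.441 for members and -0.329 for those genes, though input level is itself part of the ratio. These values are a description from the same libraries and were not tested.

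**Figure D3:**
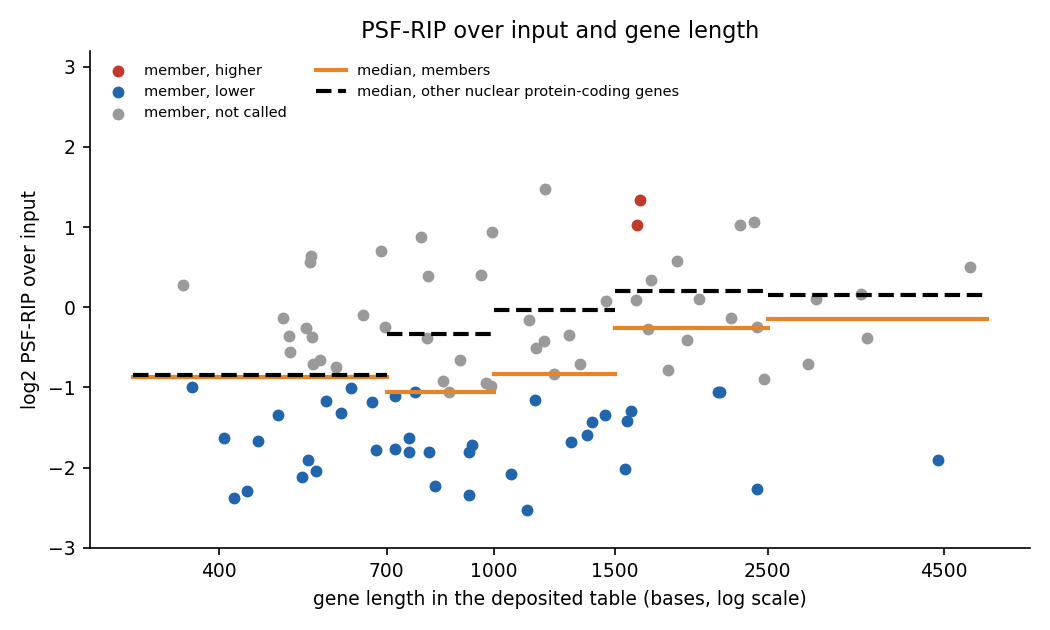
Log2 PSF-RIP over input (vertical axis) against gene length in bases on a log scale (horizontal axis) for the tested protein-coding members (points, coloured by call). Solid orange lines are the members' medians in 5 length classes and dashed black lines those of other nuclear protein-coding genes. The lines meet below 700 bases, at -0.87 and -0.85, and are furthest apart from 1000 to below 1500 bases, at -0.83 and -0.03.

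Other genes of the pathway were taken from lists of textbook members. The 13 subunits encoded in mitochondrial DNA were all lower in PSF-RIP over input, with a median of -3.77, and 12 were lower without input library 2. COX1, the catalytic subunit of complex IV, had 18905 and 13353 normalised CPM with No.10-3, 9369.6 with vehicle, and 172079 and 163752 in the inputs. Mitochondrial RNAs took 12.2% and 9.49% of counts with No.10-3, 6.91% with vehicle, and 26.3% and 24.4% in the inputs. Of the soluble electron carrier CYCS and its partner CYC1 in complex III, CYCS was lower and CYC1 higher. CYC1 had 42.9 and 37.9 normalised CPM with No.10-3, 37.9 with vehicle, and 15.4 and 14.2 in the inputs (log2 1.39, SE 0.41, adjusted p = 0.0121). CYCS had 29.6 and 47.01 normalised CPM with No.10-3, 19.5 with vehicle, and 73.96 and 105 in the inputs (log2 -1.70, SE 0.37, adjusted p = 0.00102). CYC1 was not called without either input, and CYCS was not called without input library 2.

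Among assembly factors with other names, 9 of 38 tested were lower and 2 higher, beside 13.6% and 12% of all tested genes. Their median was -0.81. This median was -0.40 without input library 2 and -0.95 without input library 1. It was -0.73 without No.10-3 replicate 1 and -0.78 without replicate 2. COX17, a copper chaperone for complex IV, had 7.76 and 13.8 normalised CPM with No.10-3, 7.86 with vehicle, and 37.3 and 59.5 in the inputs (log2 -2.36, SE 0.42, adjusted p = 9.41e-05). SCO2, another copper factor for complex IV, had 10.7 and 8.94 normalised CPM with No.10-3, 9.76 with vehicle, and 3.22 and 1.78 in the inputs (log2 1.90, SE 0.62, adjusted p = 0.0224). COX17 was called when any 1 input or No.10-3 library was left out, and SCO2 was not called without either input. The 12 tested genes of the tricarboxylic acid cycle, which feeds the chain with NADH and succinate, had 0 calls in either direction and a median of 0.15. Of 10 tested regulators of mitochondrial gene expression 2 were higher, PPRC1 and POLRMT, and 1 was lower, TFAM, which packages mitochondrial DNA. TFAM had 3.69 and 11.8 normalised CPM with No.10-3, 5.71 with vehicle, and 14.8 and 23.1 in the inputs (log2 -1.44, SE 0.48, adjusted p = 0.0254). Without either input neither TFAM nor PPRC1 was called, and POLRMT was called without input library 2 but not without input library 1. PPARGC1A, a coactivator of respiratory genes, had under 1 normalised CPM in every library.

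Set against input separately, the No.10-3 and vehicle PSF-RIP libraries share their reference, and the spread for the single vehicle library was taken from the other groups. With No.10-3, 19 of 91 RNAs were lower and 1 higher, beside 6.51% and 5.03% of all tested genes. With vehicle, 32 were lower and 1 higher, beside 10.4% and 10.1% of all tested genes. The median log2 over input was -0.46 with No.10-3 and -0.996 with vehicle. With the trend on length removed these medians were -0.13 with No.10-3 and -0.62 with vehicle. Without input library 2 they were 0.0064 with No.10-3 and -0.51 with vehicle. In that fit 1 RNA was lower with No.10-3 and 3 with vehicle, near the 1.64% and 2.1% of all tested genes. NDUFV1 was the RNA called higher in both, at 1.24 with No.10-3 and 1.45 with vehicle. COX7A2L was at -1.88 with No.10-3 and -3.18 with vehicle, and NDUFB5 at -1.24 with No.10-3 and -2.91 with vehicle.

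The direct comparison of No.10-3 with vehicle within PSF-RIP asks whether the level of these RNAs in the precipitate differed with the compound. None of the 91 tested respiratory chain RNAs passed the threshold in edgeR's test over 13766 genes (adjusted p = 0.998 for each of the 91), and 0% of all tested genes did. At an unadjusted p under 0.05 there were 6 members in edgeR and 1 in DESeq2, and 563 and 123 of all genes. With a single vehicle library, the spread came from the 2 treated libraries. As a description, the median log2 No.10-3 over vehicle was 0.45 for the 91, beside 0.04 for all tested genes. Replicate 1 had a median of 0.61 and replicate 2 of 0.25. Both No.10-3 libraries were above the vehicle library for 52 of the 91 and both below it for 10, beside 33.1% and 32.6% of all tested genes. The members' share of counts, the share of mitochondrial RNA and the share of small RNAs also differed between these 3 libraries, as given above, and their part in the values was not tested. The 13 mitochondrially encoded RNAs were above vehicle in both No.10-3 libraries, with a median of 0.68 and 0 called.

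**Figure D4:**
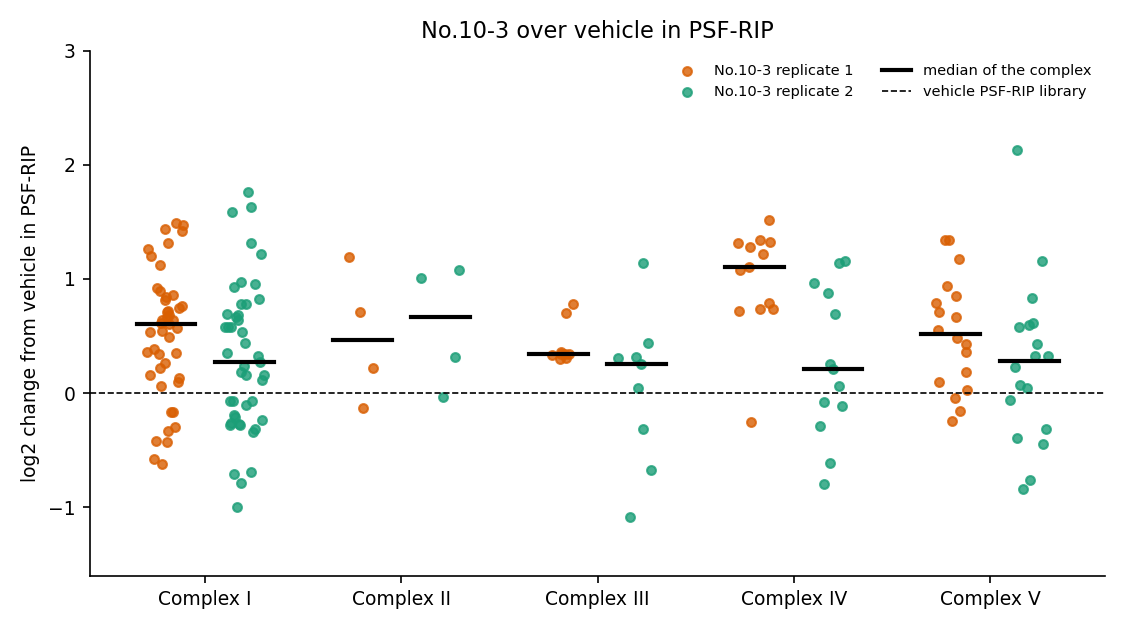
Log2 difference of each No.10-3 PSF-RIP library from the vehicle PSF-RIP library (vertical axis) for each tested member, grouped by complex, with replicate 1 in orange and replicate 2 in green. Black bars are medians of a complex in 1 replicate, and the dashed line at 0 is the vehicle library. In complex IV the bars stand at 1.10 for replicate 1 and 0.21 for replicate 2.

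By complex, the median log2 No.10-3 over vehicle was 0.45 in complex I, 0.60 in II, 0.30 in III, 0.79 in IV and 0.33 in V. Within complex I, 20 of the 30 accessory subunits were above vehicle in both No.10-3 libraries and 1 below in both. The 7 core subunits had 3 above and 2 below, and the 8 assembly factors 2 above and 2 below. In complex IV the treated libraries differed, at a median of 1.10 for replicate 1 and 0.21 for replicate 2. COX5B, for example, had 163 and 69.2 normalised CPM with No.10-3, against 66.3 with vehicle, scaled among the 3 PSF-RIP libraries. Replicate 1 stood well above vehicle for COX5B, and replicate 2 was about level with it.

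The members that were furthest above vehicle in both No.10-3 libraries, though none was called, were ATP5PB, NDUFB6, NDUFB5, NDUFS4 and NDUFA8. ATP5PB, the b subunit of the ATP synthase stalk whose promoter is printed above, had 54.7 and 95.05 normalised CPM with No.10-3, against 21.05 with vehicle (log2 1.84, SE 0.64). NDUFB5 had 20.6 and 28.4 normalised CPM with No.10-3, against 7.78 with vehicle (log2 1.66, SE 0.73). In these 2 genes replicate 2 was the higher of the treated libraries. NDUFB6, a membrane arm subunit of complex I, had 28.4 and 31.96 normalised CPM with No.10-3, against 10.1 with vehicle (log2 1.58, SE 0.70). NDUFS4, needed for the last steps of complex I assembly, had 16.3 and 14.9 normalised CPM with No.10-3, against 5.49 with vehicle (log2 1.49, SE 0.79). NDUFA8 had 26.3 and 26.7 normalised CPM with No.10-3, against 10.98 with vehicle (log2 1.27, SE 0.70). For NDUFB6, NDUFS4 and NDUFA8 the 2 treated libraries stood close together, on 12 to 24 counts in the vehicle library.

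At the other end, NDUFS3, a core subunit of complex I, had 42.6 and 34.7 normalised CPM with No.10-3, against 57.2 with vehicle (log2 -0.57, SE 0.58). NDUFAF6, a complex I assembly factor, had 24.9 and 25.1 normalised CPM with No.10-3, against 30.7 with vehicle (log2 -0.30). NDUFAF5, a complex I assembly factor with a methyltransferase fold, had 11.4 and 14.6 normalised CPM with No.10-3, against 17.4 with vehicle (log2 -0.40). Both treated libraries were below vehicle for these 3 RNAs, and none passed the test. The lowest value among the 91 was that of the noncoding NDUFA6-DT, at -0.64, on the few counts given above. The low NDUFA4L2 and NDUFB2-AS1 had log2 values of -0.62 and -0.52, and all 3 were below vehicle in both No.10-3 libraries. Leaving out No.10-3 replicate 1, with the inputs giving the spread, 4 members were called higher with a median of 0.25, near the 3.79% of all tested genes called higher. Without replicate 2, 0 were called with a median of 0.64.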

How the data were processed

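RIP-seq of 5 libraries of LTAD cells was analysed. The authors deposited 1 table with, per the file headers, a read count, an FPKM value and a length for each gene. The count columns hold whole numbers only and were treated as raw counts. The 5 FPKM columns were not used. TopHat2 2.1.0, Bowtie2 2.2.6, Bowtie and hg19 are named in the submitters' processing notes. The sources used here do not give the counting tool, its strand setting or how it counted reads with several matches. The 2 No.10-3 PSF-RIP columns, named for the compound alone, were assigned by elimination. Genes were matched to RefSeq by Entrez ID for 23696 genes and for all 98 members, and 1962 genes without a symbol stayed in the fits.

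Counts were scaled with TMM and tested with edgeR 4.0.16 in R 4.3.3 (glmQLFit and glmQLFTest, Benjamini-Hochberg threshold 0.05, mean of at least 1 CPM), over 13321 genes for PSF-RIP over input and 13766 for No.10-3 over vehicle. PSF-RIP over input is the mean of the No.10-3 and vehicle contrasts with equal weight, in a fit of all 5 libraries with 3 groups. No.10-3 over vehicle was fitted on the 3 PSF-RIP libraries, and the lone vehicle library was taken to have the spread of the treated pair. Normalised CPM are counts divided by the TMM-scaled library size and set to a common total, and differences between single libraries use log2 of these with a prior count of 2. The fits were tested on simulated data. Promoter windows came from RefSeq tables (GRCh38.p14), of which only the printed windows' coordinates are given. DESeq2 1.42.0, other scalings and filters, a length correction and leaving out each library except the vehicle PSF-RIP library were alternatives.

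The members and lists were chosen with earlier results of these data known. Named members are the up to 3 highest and 3 lowest over input in each complex, the 5 with the highest mean CPM, up to 5 in each direction with No.10-3, every tissue-restricted isoform, noncoding RNA and retrocopy. COX7C and COX6A1, NDUFV2 and the single genes named from the pathway lists fall outside this rule and were chosen after their values were seen. A member that the rule would name is not reported here.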

Additional observations from a re-analysis of the deposited data

How the results depend on the processing

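Scaling to total counts alone moved the median gene by 2.34 log2 units over input. It gave 0 members lower and 66 higher in PSF-RIP over input, 0 and 76 with No.10-3, and 0 and 50 with vehicle. Of all tested genes, 84.2%, 86.5% and 73% were higher in the same comparisons, in that order. Relative to the shift of the median gene the members' median in PSF-RIP over input was -0.77, beside -0.78. For PSF-RIP over input, 2 members were higher, against 4 with PSF-RIP as 1 group and 8 with the length trend removed. The number was 1 under each of DESeq2, a filter at a mean of 5 CPM, RLE size factors and scaling on nuclear protein-coding genes. It was also 1 with edgeR 4's quasi-dispersion, an alternative chosen after seeing the data. Fewer members were lower with DESeq2, at 10, 1, 4, 6 and 6 in complexes I to V, against 16, 1, 4, 7 and 10. With PSF-RIP as 1 group they were 11, 1, 4, 6 and 8. Of all tested genes, 9.18% were lower with DESeq2 and 10.4% with PSF-RIP as 1 group, against 13.6%. When 1 library was left out, the members' median ran from -1.14 without input library 1 to -0.21 without input library 2. For No.10-3 over input, 19 were lower, against 12 with DESeq2, and 1 was higher, against 8 with the length trend removed, 2 with no filter and 0 with DESeq2, the filter at 5 CPM, RLE, the scaling on coding genes and the quasi-dispersion; leaving out 1 library gave 1 to 28 lower and 0 to 10 higher, and the members' median ran from -0.84 without input library 1 to 0.0064 without input library 2, a change of sign. For vehicle over input, 1 was higher, against 0 with DESeq2 and 5 with the length trend removed; leaving out 1 library gave 3 to 48 lower and 0 to 3 higher. For No.10-3 over vehicle, leaving out 1 library gave 0 to 4 higher, and the other settings gave 0.

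Of 1278 values of named genes under alternatives, 1071 kept their direction and side of the threshold, 94 lost a call, 94 gained one and 19 changed sign, as did 1 median. Under scaling to total counts, direction was read after the shift of the median gene was removed, but calls were read before it. Calls gained, lost or kept there thus include the effect of the scaling. UQCRQ, called lower in the main fit and higher under total counts, is an example that counts as kept. Over input, length correction gave -0.00509 for ATP5F1A, 0.080 for COX4I1 and 0.49 for COX5B, and leaving out 1 library gave -0.86 to 0.37 for COX5B and -0.51 to 0.0041 for UQCRC2. With No.10-3 over input, leaving out 1 library gave -0.89 to 0.29 for ATP5MC2, -0.65 to 0.15 for COX4I1, -0.31 to 0.21 for UQCRC2, -0.68 to 0.76 for COX5B and -0.0167 to 6.356 for NDUFA4L2, where the upper value, fitted against input library 1 at 0 counts, is no bound. In that comparison COX4I1 was 0.22 with the length trend removed, and COX5B was -0.0182 with DESeq2, -0.0391 with the filter at 5 CPM, -0.019 with RLE and -0.029 with the scaling on coding genes. With vehicle over input, COX5B was 0.15 with the length trend removed, and NDUFS7 ran from -0.016 to 1.88 without 1 library. The cause of these changes was not tested. No paired analysis was possible because the names of the input columns do not tell which treatment each input had, so neither can be matched to a PSF-RIP library, and the vehicle PSF-RIP group has 1 library. The inputs' median of 44 and 53 counts per member limits the precision of every comparison with input.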
